A study of Mus musculus with 12 samples.

Results

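The genes described here are the nuclear-encoded subunits of the 5 complexes of oxidative phosphorylation, measured by microarray in murine HoxB8-ER cells. Members were all symbols that carry the family names of these subunits (Nduf followed by a, b, c, s or v and a number, Sdha to Sdhd, Uqcr, Cox4 to Cox8 followed by a, b or c, and Atp5), with the highest-mean probe set kept where a symbol had several. This gave 82 genes of 19505 named on the array, each with 1 probe set: 37 of complex I, 4 of complex II, 8 of complex III, 16 of complex IV and 17 of complex V. The name rule leaves out Cox4i1, Cox4i2, Cyc1, Cycs, Ndufab1, Atpif1 and Dmac2l, which were followed as a separate list.

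HoxB8-ER cells are mouse myeloid progenitors immortalized by an estrogen-dependent HoxB8, which resemble granulocyte-macrophage progenitors and differentiate toward neutrophils once estrogen is removed. Every group was transduced with a pair of retroviral MSCV vectors, one marked by GFP and one by mCherry, sorted for both colours, rested for 1 week and harvested 24 hours after estrogen withdrawal. The groups were CSF3R_T618I+CEBPA_V314VW (both oncogenes, called the combination below), CSF3R_T618I, CEBPA_V314VW and Empty Vector, with 3 arrays each (A, B and C). CSF3R_T618I is an activating mutation of the granulocyte colony-stimulating factor receptor, and CEBPA_V314VW is a C-terminal mutation of a transcription factor of granulocyte differentiation. Whether the 3 arrays of a group came from separate transductions is not given in the sources used here, so p-values measure only the spread between these arrays, and each group is sorted cells of a single immortalized line.

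Oxidative phosphorylation passes electrons from NADH (complex I) and succinate (complex II) through ubiquinone, complex III and cytochrome c to oxygen at complex IV, and the proton gradient built on the way drives ATP synthesis by complex V. Most subunits are encoded in the nucleus and imported, while a small core is encoded by mitochondrial DNA. Granulocyte-macrophage progenitors are rich in mitochondria, and neutrophils rely mostly on glycolysis.

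Levels are RMA values on a log2 scale, in which equal numbers on different probe sets do not mean equal amounts of RNA, so each gene is compared only with itself. Of the 82 genes, 80 had a mean above the highest array mean of the background controls (5.27) in every group, Cox8b was above it in the combination only, and Cox7b2 was below it in all 4. The means of 23 members lay above the 95th percentile of all gene probe sets (10.79), where the array may not show a rise in full. Arrays within a group correlated at 0.987 to 0.995 over all gene probe sets. The arrays CSF3R_T618I C and combination C stood apart, with the highest background control means (5.25 and 5.27, against 4.98 to 5.11 on the others) and the lowest estimated array weights (0.325 and 0.486). All 10 markers of granulocyte-macrophage progenitors and neutrophil precursors were above background in every group, with a summed level of 15.96 to 15.98 in the combination, 15.91 to 15.99 with CSF3R_T618I, 15.86 to 15.90 with CEBPA_V314VW and 16.02 to 16.05 with Empty Vector.

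The comparisons asked whether the oncogenes, alone or together, shifted the respiratory chain genes. A gene was called where limma's moderated test, fitted to all 12 arrays and 22206 gene probe sets, gave a Benjamini-Hochberg adjusted p under 0.05. A single subunit gene, Ndufa4, was called in any pairwise comparison. Ndufa4 was lower in the combination than in Empty Vector cells and lower than in CEBPA_V314VW cells. Most other subunit genes were slightly lower in the combination than in Empty Vector cells without passing the test: 71 of 82 changes were negative (56.2% of all gene probe sets were), with a median of -0.14 on the log2 scale, beside -0.03 over all gene probe sets. In bulk RNA, fewer cells of a type and less RNA per cell cannot be told apart.

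Ndufa4 encodes a small subunit first assigned to complex I and now known as a subunit of complex IV; it is counted here under complex I, by its name. Its level was 11.31, 11.41 and 11.49 in the combination, 11.74, 11.52 and 11.57 with CSF3R_T618I, 11.98, 11.93 and 11.84 with CEBPA_V314VW, and 11.96, 11.93 and 11.99 with Empty Vector. All 6 arrays with CSF3R_T618I lay below all 6 arrays without it, and the combination lay below CSF3R_T618I alone. Ndufa4 fell by 0.56 on the log2 scale in the combination relative to Empty Vector (SE 0.10, 1.47-fold, limma adjusted p = 0.00403). Relative to CEBPA_V314VW alone, it fell by 0.51 in the combination (SE 0.10, 1.42-fold, limma adjusted p = 0.00658). The change with CSF3R_T618I alone relative to Empty Vector was -0.35 (SE 0.10) and missed the threshold (adjusted p = 0.0583). The change in the combination relative to CSF3R_T618I was -0.20 (SE 0.10, adjusted p = 0.536), and that with CEBPA_V314VW relative to Empty Vector was -0.05 (SE 0.10, adjusted p = 0.983). The interaction of both oncogenes was -0.16 (SE 0.14, adjusted p = 1).

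**Figure D1:**
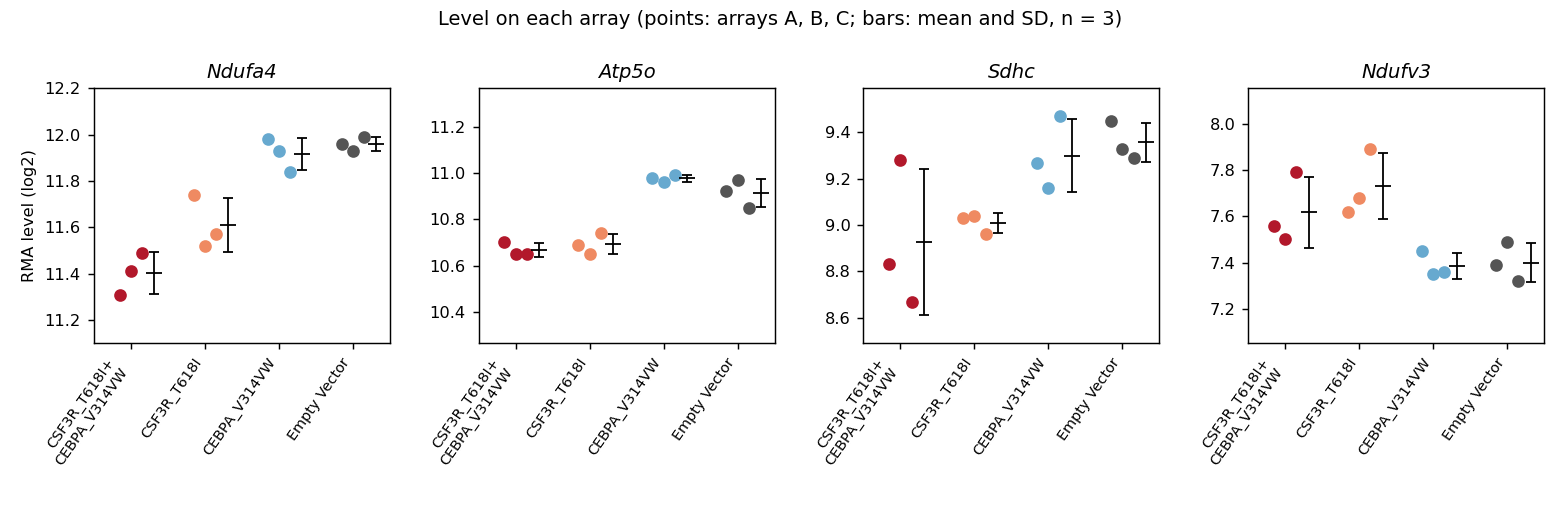
RMA level on the log2 scale (y axis, same span in each panel, not starting at 0) of Ndufa4, Atp5o, Sdhc and Ndufv3 on each array, by group; points are arrays A, B and C, and bars are the mean and SD (n = 3). Ndufa4 and Atp5o lie lower on all 6 arrays with CSF3R_T618I, combination B of Sdhc (9.28) stands above the other arrays of its group, and Ndufv3 runs the other way.

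Promoters are shown for Ndufa4, the called gene, for Atp5o and Ndufv3, which were lower and higher on all 6 arrays with CSF3R_T618I, and for Uqcr11, a subunit gene described below whose promoter holds a searched motif. The 250 bases before each RefSeq start on GRCm38.p6 are shown 5′ to 3′, with any match to the searched motifs in capitals.
Ndufa4 chr6:11907451-11907700 (- strand): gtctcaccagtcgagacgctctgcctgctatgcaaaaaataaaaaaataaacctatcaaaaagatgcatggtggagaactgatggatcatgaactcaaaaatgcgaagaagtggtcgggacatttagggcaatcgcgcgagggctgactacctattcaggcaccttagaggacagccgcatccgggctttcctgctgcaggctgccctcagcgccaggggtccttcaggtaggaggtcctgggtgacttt
Atp5o chr16:91931631-91931880 (- strand): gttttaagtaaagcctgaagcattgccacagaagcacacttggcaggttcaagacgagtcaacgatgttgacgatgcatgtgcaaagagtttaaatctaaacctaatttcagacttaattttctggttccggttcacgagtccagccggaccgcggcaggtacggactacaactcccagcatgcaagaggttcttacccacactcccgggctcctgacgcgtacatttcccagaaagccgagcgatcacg
Ndufv3 chr17:31519865-31520114 (+ strand): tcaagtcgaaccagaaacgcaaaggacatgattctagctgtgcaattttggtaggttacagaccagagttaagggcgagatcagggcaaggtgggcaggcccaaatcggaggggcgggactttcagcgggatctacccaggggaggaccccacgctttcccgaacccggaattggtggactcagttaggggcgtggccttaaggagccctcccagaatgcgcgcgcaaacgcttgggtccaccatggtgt
Uqcr11 chr10:80406822-80407071 (- strand): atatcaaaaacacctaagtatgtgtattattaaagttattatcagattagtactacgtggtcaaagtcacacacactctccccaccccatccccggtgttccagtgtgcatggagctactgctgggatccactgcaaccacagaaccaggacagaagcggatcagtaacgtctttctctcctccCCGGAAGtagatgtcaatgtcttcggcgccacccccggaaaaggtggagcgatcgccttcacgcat

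The capitals in Uqcr11 mark CCGGAAG, the core bound by ETS factors such as GABP, and no searched motif was found in the printed windows of Ndufa4, Atp5o and Ndufv3. Over the full windows of 300 bases (250 before to 50 after the start, both strands), the ETS core was found in 17 of the 69 members with a promoter in the table (24.6%), against 9.93% of 27025 genes. The NRF1 motif GCATGCGC was found in 10 members (14.5%, against 3.05% of genes), Uqcr11 among them, and the YY1 core AAGATGG in 11 (15.9%, against 7.28%). The ERR motif TCAAGGTCA was found in 2 members, Atp5g3 and Sdhd (2.9%, against 0.466%). The ETS and YY1 cores can share the letters AAG. The 33 members with any of the motifs had a median change of -0.10 in the combination relative to Empty Vector, and the 36 with none had -0.15. The matches describe letters only.

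**Figure D2:**
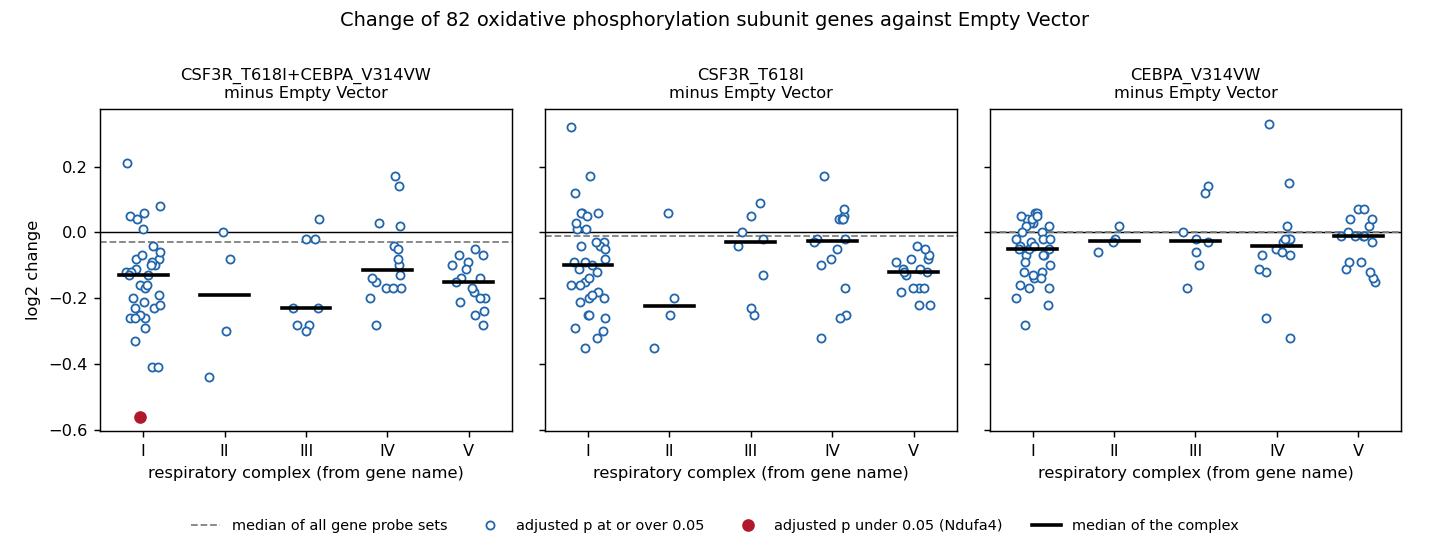
Log2 change (y axis) of each of the 82 subunit genes relative to Empty Vector, by complex (x axis), for the combination, CSF3R_T618I and CEBPA_V314VW; points are genes, solid bars the medians of each complex and the dashed line the median of all 22206 gene probe sets. In the combination panel the medians run from -0.11 (complex IV) to -0.23 (complex III) and Ndufa4 is the filled point at -0.56.

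In the combination relative to Empty Vector, 1 of 82 members was called lower and none higher, while 2.3% of all gene probe sets were called lower and 5.45% in either direction. At an unadjusted p under 0.05 there were 20 members. An ordinary linear model called 5, against 5.62% of all gene probe sets. Here and below, the share of all gene probe sets at an unadjusted p was not counted. No member reached 2-fold. The 3 combination arrays lay below all 3 Empty Vector arrays for 33 members (40.2%), against 13.7% of all gene probe sets, and above them for 1 member, Ndufv3 (9.44% of all gene probe sets). Without the arrays CSF3R_T618I C and combination C, 45 members (54.9%) lay below, against 20.4% of all probe sets, with 2 arrays set against 3. The 95% interval, which reflects only the spread between these arrays, lay within 2-fold for all 82 members. It lay within 1.5-fold in either direction for 75 of 82, against 68.2% of all gene probe sets. Bright probe sets were lower too, with a median of -0.14 for the 23 brightest members and -0.06 for all 1111 gene probe sets above the 95th percentile. The other 59 members had a median of -0.13, beside -0.05 over the 16550 gene probe sets above background in any group. The part of brightness in the result was not tested.

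Complex I, the NADH dehydrogenase, had 31 of 37 negative changes in the combination relative to Empty Vector (median -0.13). There 16 genes did not overlap on the lower side, against 13.7% of all gene probe sets. Beside Ndufa4, the most negative values were those of Ndufb5, an accessory subunit of the membrane arm, and Ndufv2, a core iron-sulfur subunit of the NADH-binding arm, both at -0.41. Neither passed the test. Ndufv3, an accessory subunit next to the NADH-binding core, had the highest of the 6 positive changes, the others (Ndufb8, Ndufs5, Ndufa11, Ndufa8 and Ndufb7) being 0.01 to 0.08. Its level was 7.56, 7.50 and 7.79 in the combination, 7.62, 7.68 and 7.89 with CSF3R_T618I, 7.45, 7.35 and 7.36 with CEBPA_V314VW, and 7.39, 7.49 and 7.32 with Empty Vector. All 6 arrays with CSF3R_T618I were above the 6 without, by the least between combination B and Empty Vector B. The change was 0.32 (SE 0.11, adjusted p = 0.133) with CSF3R_T618I relative to Empty Vector and 0.21 (SE 0.11, adjusted p = 0.388) in the combination.

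Ndufb6, an accessory subunit of the membrane arm, showed the most negative complex I change with CEBPA_V314VW relative to Empty Vector, -0.28 (SE 0.13, adjusted p = 0.548). It measured 9.05, 8.98 and 9.02 with CEBPA_V314VW, against 9.40, 9.21 and 9.27 with Empty Vector. These groups did not overlap, and the combination (8.92, 8.94 and 9.03) also lay below Empty Vector. Ndufb4 and Ndufb4b are related copies whose probe sets may read each other's RNA, so their changes in the combination (-0.20 and -0.26) are uncertain as separate values.

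Complex II, succinate dehydrogenase, also turns in the tricarboxylic acid cycle. Sdhc, a membrane anchor, had the most negative value of the complex in each comparison with Empty Vector. Its level was 8.83, 9.28 and 8.67 in the combination, 9.03, 9.04 and 8.96 with CSF3R_T618I, 9.27, 9.16 and 9.47 with CEBPA_V314VW, and 9.45, 9.33 and 9.29 with Empty Vector. Neither group with CSF3R_T618I overlapped Empty Vector, but combination B stood far above the other arrays of its group and just below Empty Vector C. The changes relative to Empty Vector were -0.44 (SE 0.15, adjusted p = 0.132) in the combination, -0.35 (SE 0.15, adjusted p = 0.229) with CSF3R_T618I and -0.06 (SE 0.15, adjusted p = 0.986) with CEBPA_V314VW. Without combination B, the first was -0.61 and passed the test (limma adjusted p = 0.0131). Without combination C, an array with a raised background, Sdhc was not called. Without the arrays combination C and CSF3R_T618I C, the lowest complex II change in the combination relative to Empty Vector was -0.31.

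Sdha, the catalytic flavoprotein, measured 9.30, 9.51 and 9.33 in the combination, 9.50, 9.38 and 9.43 with CSF3R_T618I, 9.73, 9.48 and 9.77 with CEBPA_V314VW, and 9.74, 9.68 and 9.63 with Empty Vector. Both groups with CSF3R_T618I lay below Empty Vector, and CEBPA_V314VW B lay among them. The change in the combination relative to Empty Vector was -0.30 (SE 0.11, adjusted p = 0.158). Sdhb, the iron-sulfur subunit, and Sdhd, the other anchor, had changes of 0.00 and -0.08 in that comparison, with overlapping groups.

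Complex III, the cytochrome bc1 complex, had 7 of 8 negative changes in the combination relative to Empty Vector and a median of -0.23. The 5 genes that did not overlap on the lower side were Uqcr11, Uqcrb, Uqcrc1, Uqcrc2 and Uqcrq, against 13.7% of all gene probe sets. Uqcrc2, a core protein, had the most negative value, -0.30 (SE 0.13, adjusted p = 0.277). Its level was 9.30, 9.37 and 8.96 in the combination, against 9.62, 9.43 and 9.48 with Empty Vector, with combination C well below the other arrays of its group. Uqcr11, a small supernumerary subunit, measured 8.32, 8.30 and 8.23 with CSF3R_T618I, against 8.55, 8.53 and 8.54 with Empty Vector. That change was -0.25 (SE 0.10, adjusted p = 0.226), the most negative of the complex with CSF3R_T618I alone. Uqcrb, a ubiquinone-binding subunit, had the most negative value with CEBPA_V314VW, -0.17 (SE 0.13, adjusted p = 0.84): levels were 11.55, 11.66 and 11.40 with CEBPA_V314VW, against 11.62, 11.68 and 11.83 with Empty Vector, and the groups overlapped. The Rieske protein gene Uqcrfs1 and the hinge protein gene Uqcrh both had -0.02 in the combination.

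Complex IV, cytochrome c oxidase, had the median nearest 0 in the combination relative to Empty Vector (-0.11, 12 of 16 negative). The 4 genes that did not overlap on the lower side were Cox5a, Cox6a2, Cox7b and Cox7c, against 13.7% of all gene probe sets. Cox7c, a ubiquitous small subunit, measured 12.37, 12.45 and 12.42 in the combination, against 12.61, 12.64 and 12.60 with Empty Vector. The change was -0.20 (SE 0.09, adjusted p = 0.285). Cox6a2, the heart and skeletal muscle isoform of Cox6a1, had the most negative value of the complex. It measured 7.42, 7.43 and 7.34 in the combination, against 7.66, 7.81 and 7.57 with Empty Vector (change -0.28, SE 0.13, adjusted p = 0.285). The common isoform Cox6a1 measured 12.43, 12.48 and 12.65 in the combination, against 12.59, 12.62 and 12.50 with Empty Vector, and the groups overlapped (change -0.05, SE 0.10).

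Cox6b2, the testis isoform of subunit 6b, had the most negative complex IV value with CSF3R_T618I relative to Empty Vector, -0.32 (SE 0.17, adjusted p = 0.377), with levels of 5.60, 5.81 and 6.26 against 6.27, 6.45 and 5.91. The groups overlapped through CSF3R_T618I C and Empty Vector C. Cox7b2 gave the largest change of the complex with CEBPA_V314VW, 0.33 (SE 0.13, adjusted p = 0.413), but its levels (3.40, 3.60 and 3.81 with CEBPA_V314VW, against 3.12, 3.34 and 3.35 with Empty Vector) are all below the background controls. Cox8b, the muscle isoform of Cox8a, stood at background on many arrays: 5.01, 5.29 and 5.82 in the combination, 4.81, 4.72 and 5.32 with CSF3R_T618I, 5.24, 5.60 and 4.71 with CEBPA_V314VW, and 5.28, 5.22 and 5.12 with Empty Vector. The highest array in that gene, combination C, was one of the arrays with a raised background.

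Complex V, the ATP synthase, had every change negative in the combination relative to Empty Vector (17 of 17, from -0.28 to -0.05, median -0.15) and with CSF3R_T618I relative to Empty Vector (17 of 17, from -0.22 to -0.04, median -0.12). With CSF3R_T618I this rested on array C: without it, 14 of 17 were negative (Atp5h, Atp5j and Atp5pb were positive) and the median was -0.06, while the combination without its own array C had 16 of 17 negative and a median of -0.16. With CEBPA_V314VW relative to Empty Vector, 11 of 17 were negative and the median was -0.01. Limma called 0 of the 17 in these comparisons, with 4, 1 and 0 at an unadjusted p under 0.05 in the combination, CSF3R_T618I and CEBPA_V314VW. The comparisons of the combination and of CSF3R_T618I with Empty Vector share the Empty Vector arrays. In the combination relative to CEBPA_V314VW, which uses no Empty Vector array, 17 of 17 were negative too (from -0.31 to -0.04, median -0.10). Atp5o, the oligomycin sensitivity-conferring subunit of the stalk, separated most cleanly. Its level was 10.70, 10.65 and 10.65 in the combination, 10.69, 10.65 and 10.74 with CSF3R_T618I, 10.98, 10.96 and 10.99 with CEBPA_V314VW, and 10.92, 10.97 and 10.85 with Empty Vector. All 6 arrays with CSF3R_T618I lay below the 6 without.

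The changes of Atp5o were -0.31 (SE 0.09, adjusted p = 0.0528) in the combination relative to CEBPA_V314VW, -0.28 (SE 0.09, adjusted p = 0.0596) with CSF3R_T618I relative to CEBPA_V314VW, and -0.25 (SE 0.09, adjusted p = 0.158) in the combination relative to Empty Vector. Atp5mpl, a small membrane subunit, had the most negative value in that last comparison, -0.28 (SE 0.11, adjusted p = 0.187), with levels of 11.44, 11.35 and 11.22 in the combination against 11.56, 11.61 and 11.69 with Empty Vector. Atp5e, the epsilon subunit of the stalk, had the largest change with CSF3R_T618I (-0.22, SE 0.14, adjusted p = 0.497), ahead of Atp5o only beyond the second decimal, and with CEBPA_V314VW (-0.15, SE 0.14, adjusted p = 0.906), each relative to Empty Vector. It measured 7.77, 7.67 and 7.36 with CSF3R_T618I and 7.73, 7.52 and 7.79 with CEBPA_V314VW, against 7.86, 7.87 and 7.76 with Empty Vector, and both overlapped it. Atp5b, the catalytic beta subunit, had changes of -0.07 in the combination and -0.11 with CSF3R_T618I.

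With CSF3R_T618I relative to Empty Vector, 0 of 82 members were called by limma, against 6.37% of all gene probe sets. At an unadjusted p under 0.05 there were 9. An ordinary linear model called 2, Atp5o and Ndufa4, against 6.39% of all gene probe sets. The median change was -0.09, beside -0.01 over all probe sets, and 63 of 82 were negative (52.3% of all probe sets were). Without CSF3R_T618I C the median was -0.04, equal to the -0.04 over all probe sets, and 53 were negative, against 57.9% of all probe sets. The groups did not overlap on the lower side for 14 members (17.1%), against 13.5% of all gene probe sets. The 95% interval lay within 1.5-fold for 76 of 82 members, against 68.1% of all gene probe sets.

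With CEBPA_V314VW relative to Empty Vector, 0 of 82 members were called by limma, against 1.97% of all gene probe sets; 2 had an unadjusted p under 0.05 and an ordinary linear model called 0. The median change was -0.03, beside 0 over all probe sets, and 58 were negative (50.6% of all probe sets were). The CEBPA_V314VW arrays lay below Empty Vector for 13 members (15.9%, against 8.39% of all probe sets), 7 of them of complex I. All intervals lay within 2-fold, and 80 of 82 within 1.5-fold, against 75.3% of all gene probe sets.

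Adding CEBPA_V314VW to CSF3R_T618I (the combination relative to CSF3R_T618I) gave 0 called members by limma, against 1.6% of all gene probe sets, with 0 at an unadjusted p under 0.05 and 0 by the ordinary linear model. The median was -0.06, beside -0.02 over all probe sets, and 8 members did not overlap on the lower side (9.76%, against 8.02%). Without both arrays C the median was -0.11 and 43 did not overlap (52.4%, against 21.9%), with 2 arrays against 2, and without CSF3R_T618I A the median was 0. Adding CSF3R_T618I to CEBPA_V314VW (the combination relative to CEBPA_V314VW) gave 1 called member, Ndufa4, lower, against 6.65% of all probe sets in either direction and 3.08% lower. Here 70 of 82 changes were negative, the median was -0.10 beside -0.03 over all probe sets, and 14 members did not overlap on the lower side (17.1%, against 13.1%; without combination C, 32 members or 39%, against 19.3%). Between the single oncogenes, CSF3R_T618I relative to CEBPA_V314VW, 0 members were called by limma, against 10.7% of all probe sets. This comparison had 6 members at an unadjusted p under 0.05 and 3 by the ordinary linear model (10.8% of all probe sets). Its median was -0.06, or 0 without CSF3R_T618I C, and 12 members did not overlap on the lower side (14.6%, against 14.5%) and 5 on the higher (6.1%, against 11.4%). The interaction gave 0 called members by limma, against 0.324% of all probe sets, with 1 at an unadjusted p under 0.05 and 0 by the ordinary linear model.

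**Figure D3:**
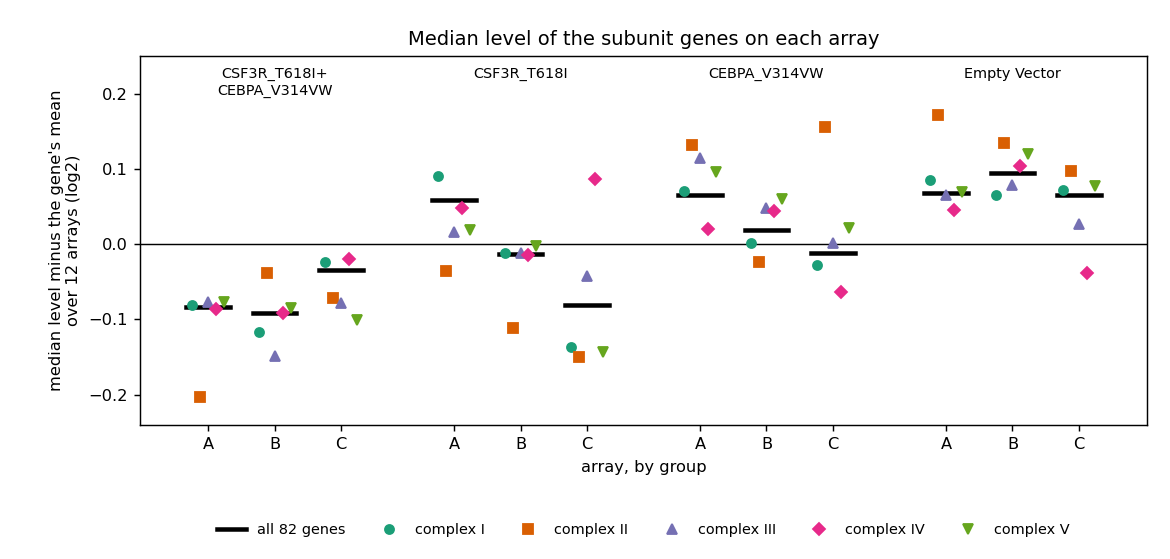
Median over the subunit genes of the level minus each gene's mean over the 12 arrays (y axis, log2), for each array (x axis) by group; bars are all 82 genes and symbols the 5 complexes. The combination arrays sit between -0.09 and -0.03 and the Empty Vector arrays between 0.06 and 0.09, while the CSF3R_T618I arrays spread from -0.08 to 0.06.

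The plot of array medians sets the shift beside the differences between arrays of a group. After centring each gene on its mean, the median over the 82 members was -0.08, -0.09 and -0.03 on the combination arrays, 0.06, -0.01 and -0.08 on the CSF3R_T618I arrays, 0.06, 0.02 and -0.01 on the CEBPA_V314VW arrays, and 0.07, 0.09 and 0.06 on the Empty Vector arrays. The combination and Empty Vector did not overlap, and each varied less among its own arrays than the distance between them. CSF3R_T618I spanned nearly the whole range, with array A at the level of Empty Vector and array C at that of the combination.

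The mean effect of CSF3R_T618I, averaged over both backgrounds in the same fit, was examined after the values above were known. It called 5 of 82 members: Ndufa4, Atp5o, Sdhc and Sdha were lower and Ndufv3 was higher, against 6.68% of all gene probe sets lower and 5.74% higher. The member share (4.88% lower and 1.22% higher) was below this background. Ndufa4 fell by 0.43 (SE 0.07, limma adjusted p = 0.00104) and Atp5o fell by 0.27 (SE 0.06, limma adjusted p = 0.0122). Sdhc fell by 0.36 (SE 0.10, limma adjusted p = 0.0361), Sdha fell by 0.27 (SE 0.08, limma adjusted p = 0.038) and Ndufv3 rose by 0.28 (SE 0.08, limma adjusted p = 0.037). Ndufa4 and Atp5o passed in all 18 alternatives run for this contrast, while Ndufv3 passed in 6 and Sdha and Sdhc in 5 each. The mean effect of CEBPA_V314VW called 0 members by limma, against 1.76% of all probe sets lower and 1.68% higher, with 3 at an unadjusted p under 0.05.

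All 6 arrays with CSF3R_T618I lay below the 6 others for 3 members, Ndufa4, Atp5o and Ndufb2 (3.66%, against 3.99% of all gene probe sets), and above them for 1 member, Ndufv3 (1.22%, against 3.55%). Ndufb2, an accessory subunit of complex I, measured 9.05, 8.81 and 9.04 in the combination, 8.97, 9.08 and 8.76 with CSF3R_T618I, 9.22, 9.18 and 9.17 with CEBPA_V314VW, and 9.24, 9.31 and 9.14 with Empty Vector. It was not called in any pairwise comparison.

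The genes that build, feed and regulate the chain were taken from fixed lists. Beside them, limma called 5.45% of all gene probe sets in the combination relative to Empty Vector (2.3% lower). The share was 6.37% with CSF3R_T618I and 1.97% with CEBPA_V314VW, each relative to Empty Vector. For the combination relative to CEBPA_V314VW it was 6.65% (3.08% lower). Of the 7 measured subunit-related genes outside the name patterns, 0 were called by limma in the combination relative to Empty Vector (2 at an unadjusted p under 0.05), and Dmac2l, once named as an ATP synthase subunit (Atp5s), fell by 0.79 in the combination relative to CEBPA_V314VW (SE 0.21, limma adjusted p = 0.0412). Its levels were 6.32, 7.17 and 6.71 in the combination, against 7.74, 7.23 and 7.58 with CEBPA_V314VW, with combination B close to CEBPA_V314VW B. In the combination relative to Empty Vector, 1 of the 6 assembly factors of complex III, Uqcc1, fell by 0.41 (SE 0.11, limma adjusted p = 0.0468). In that comparison limma called 0 of the 15, 4, 20 and 3 assembly factors of complexes I, II, IV and V, with 2, 0, 4 and 0 at an unadjusted p under 0.05. Of the 76 mitochondrial ribosomal proteins, 0 were called by limma in any comparison with Empty Vector, with 7 at an unadjusted p under 0.05 in the combination, where their median change was -0.12 and that of the subunits -0.14. Of 14 carriers and porins and 16 genes of ubiquinone synthesis and electron feeding, 0 were called by limma in the combination relative to Empty Vector (0 and 6 at an unadjusted p under 0.05), with medians of -0.10 and -0.23.

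The tricarboxylic acid cycle held the clearest neighbour of the chain. Idh2, the mitochondrial NADP-dependent isocitrate dehydrogenase, measured 10.77, 10.82 and 10.92 in the combination, 10.90, 10.95 and 10.73 with CSF3R_T618I, 11.26, 11.40 and 11.23 with CEBPA_V314VW, and 11.22, 11.30 and 11.36 with Empty Vector. All arrays with CSF3R_T618I lay below all arrays without it. Idh2 fell by 0.46 in the combination (SE 0.10, limma adjusted p = 0.0173) and by 0.44 with CSF3R_T618I (SE 0.10, limma adjusted p = 0.0216), each relative to Empty Vector. Dlat, the E2 subunit of pyruvate dehydrogenase, fell by 0.45 in the combination relative to Empty Vector (SE 0.11, limma adjusted p = 0.0359), so that 2 of the 17 measured genes of the list were called lower there, against 2.3% of all gene probe sets, and 0 higher. The list's median was -0.15.

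In the list for expression and copying of the mitochondrial genome, 1 of 22 genes rose and 0 fell in the combination relative to Empty Vector, where 5.45% of all gene probe sets were called in either direction: Mtif3, a mitochondrial translation initiation factor, by 0.52 (SE 0.11, limma adjusted p = 0.0138). Tfb1m, a mitochondrial rRNA methyltransferase, was called with CSF3R_T618I relative to Empty Vector, where it fell by 0.51 (SE 0.12, limma adjusted p = 0.0226). Tfam, which packages and transcribes mitochondrial DNA, had a change of -0.25 (SE 0.16, adjusted p = 0.498) in the combination.

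Between the single oncogenes, where 10.7% of all gene probe sets were called, list genes fell and rose as well. With CSF3R_T618I relative to CEBPA_V314VW, 3 of 22 genes for the mitochondrial genome fell and 0 rose: Ssbp1, which coats single-stranded mitochondrial DNA, by 0.50, Tfb1m by 0.48 and Twnk, the mitochondrial DNA helicase, by 0.45 (limma adjusted p = 0.0273, 0.0207 and 0.0306). In the tricarboxylic acid cycle list 3 of 17 fell, Suclg2, a succinyl-CoA ligase subunit, by 0.52, Idh2 by 0.44 and Idh3g, a subunit of the NAD-dependent isocitrate dehydrogenase, by 0.34 (limma adjusted p = 0.0112, 0.0134 and 0.0342). Of the 20 complex IV assembly factors, Lrpprc, which stabilizes mitochondrial mRNAs, fell by 0.52 and Pet100 rose by 0.49 (limma adjusted p = 0.0156 and 0.0297). Of the 15 complex I assembly factors, Ndufaf7 fell by 0.54 and Ndufaf4 fell by 0.40 (limma adjusted p = 0.0123 and 0.0441).

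Among the genes that feed ubiquinone, Dhodh, which passes electrons to ubiquinone in pyrimidine synthesis, fell by 0.57 and Coq2, an enzyme of ubiquinone synthesis, fell by 0.52 with CSF3R_T618I relative to CEBPA_V314VW, while Gpd2, the mitochondrial glycerol-3-phosphate dehydrogenase, rose by 0.29 (limma adjusted p = 0.00629, 0.0122 and 0.0485). Of the 76 mitochondrial ribosomal proteins, 4 fell in that comparison: Mrpl19 by 0.76, Mrps31 by 0.62, Mrpl16 by 0.55 and Mrpl38 by 0.38 (limma adjusted p = 0.00181, 0.0141, 0.00975 and 0.0371). Mrps31 and Mrpl16 also fell in the combination relative to CEBPA_V314VW, by 0.58 and 0.49 (limma adjusted p = 0.0279 and 0.026), as did Coq2 by 0.45 and Idh3g by 0.38 (limma adjusted p = 0.0368 and 0.0274). Mrpl19 was the one gene of the mitochondrial lists called in the combination relative to CSF3R_T618I, where it rose by 0.67 (SE 0.13, limma adjusted p = 0.0234).

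**Figure D4:**
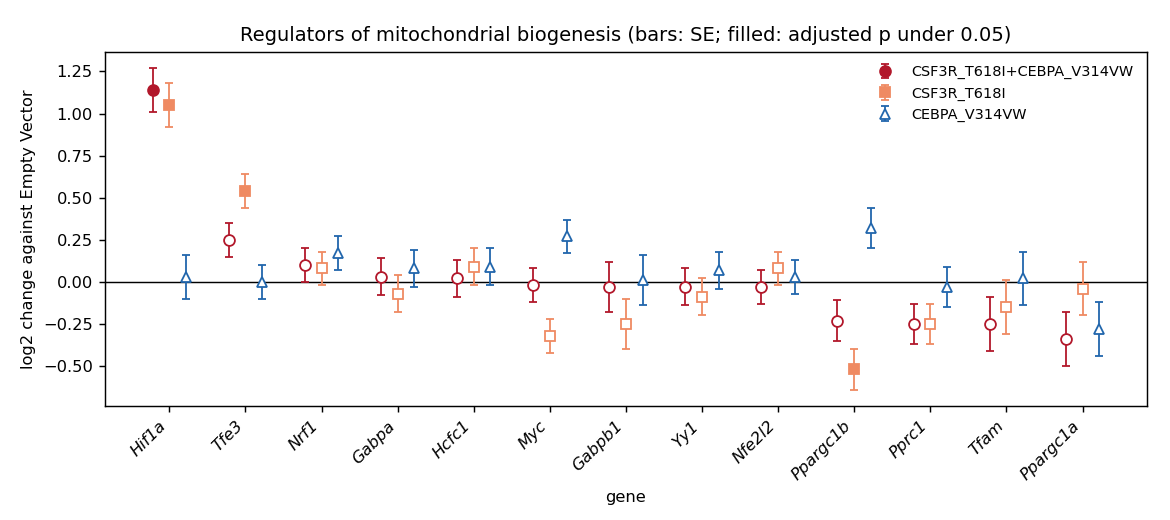
Log2 change relative to Empty Vector (y axis) of regulators of mitochondrial biogenesis and Tfam (x axis) in the combination, CSF3R_T618I and CEBPA_V314VW; bars are SE, and filled symbols have an adjusted p under 0.05. Hif1a is the one gene filled in both groups with CSF3R_T618I (1.14 and 1.05).

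Among 12 measured regulators of mitochondrial biogenesis, those that moved with CSF3R_T618I ran in both directions. Hif1a, the oxygen-regulated transcription factor, measured 11.51, 11.63 and 11.42 in the combination, 11.46, 11.57 and 11.25 with CSF3R_T618I, 10.55, 10.16 and 10.52 with CEBPA_V314VW, and 10.44, 10.26 and 10.45 with Empty Vector. The groups with and without CSF3R_T618I did not overlap. Hif1a rose by 1.14 in the combination (SE 0.13, 2.2-fold, limma adjusted p = 0.000117) and by 1.05 with CSF3R_T618I (SE 0.13, 2.07-fold, limma adjusted p = 0.000216), each relative to Empty Vector. Tfe3, a regulator of lysosomal and mitochondrial genes, rose by 0.54 with CSF3R_T618I relative to Empty Vector (SE 0.10, limma adjusted p = 0.00633).

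Ppargc1b, a coactivator of respiratory genes, measured 9.50, 9.39 and 9.63 in the combination, 9.16, 9.21 and 9.26 with CSF3R_T618I, 10.29, 9.94 and 9.95 with CEBPA_V314VW, and 9.74, 9.66 and 9.81 with Empty Vector. The 4 groups did not overlap, in the order CEBPA_V314VW, Empty Vector, combination, CSF3R_T618I from high to low. Ppargc1b fell by 0.52 with CSF3R_T618I relative to Empty Vector (SE 0.12, limma adjusted p = 0.017) and by 0.55 in the combination relative to CEBPA_V314VW (SE 0.12, limma adjusted p = 0.011), while the combination relative to Empty Vector gave -0.23 (SE 0.12, adjusted p = 0.377). Its relative Ppargc1a was below the background controls in every group mean. Nrf1 and Gabpa, whose products bind respiratory gene promoters, had changes of 0.10 and 0.03 in the combination relative to Empty Vector (adjusted p = 0.687 and 0.924), and Pprc1 had -0.25 (adjusted p = 0.317). Myc, a growth regulator, had -0.02 in the same comparison and fell by 0.59 with CSF3R_T618I relative to CEBPA_V314VW (SE 0.10, limma adjusted p = 0.00114).

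Markers of cell state differed from Empty Vector with either oncogene. With CSF3R_T618I alone, limma called 2 of the 10 progenitor and precursor markers lower and 1 higher, against 6.37% of all gene probe sets. With CEBPA_V314VW alone it also called 2 lower and 1 higher, against 1.97% of all gene probe sets. In the combination, 5.45% of all gene probe sets were called relative to Empty Vector. Of the 10 markers of granulocyte-macrophage progenitors and neutrophil precursors, 2 fell, 1 rose and 7 did not pass the test in the combination relative to Empty Vector, with a list median of -0.08. Kit and Cd34, progenitor surface markers, fell by 1.75 (limma adjusted p = 3.7e-07) and 1.58 (limma adjusted p = 6.51e-06). Cebpa, a transcription factor of granulocyte differentiation and the gene of which one introduced oncogene is a mutant, rose by 1.18 (limma adjusted p = 2.52e-05). It measured 12.17, 12.07 and 12.40 in the combination, 10.60, 10.82 and 10.73 with CSF3R_T618I, 12.00, 12.14 and 11.90 with CEBPA_V314VW, and 10.99, 11.04 and 11.07 with Empty Vector. It was high in both groups that carry CEBPA_V314VW, and whether its probe set reads the introduced gene was not tested. The neutrophil granule genes Mpo, Elane, Prtn3 and Ctsg had changes of -0.23 to -0.03 that did not pass. Of 8 listed monocyte and macrophage markers 5 were measured, and only 3 of these 5 changes were positive in that comparison. Adgre1 and Csf1r rose, by 1.27 (limma adjusted p = 1.69e-05) and 0.87 (limma adjusted p = 0.0388). The summed level of the list was 9.21 to 9.58 in the combination and 9.30 to 9.58 with CSF3R_T618I. It was 8.39 to 8.69 with CEBPA_V314VW and 8.67 to 8.77 with Empty Vector, with Itgax at background in all 4 groups. Of the 7 lymphoid markers, Il7r rose by 1.80 (limma adjusted p = 0.000195), with a summed level of 8.61 to 9.06 in the combination, 8.68 to 8.86 with CSF3R_T618I, 8.13 to 8.47 with CEBPA_V314VW and 8.12 to 8.25 with Empty Vector; 1, 2, 1 and 3 of the markers were at background in these groups. Of the 6 eosinophil, basophil and mast cell markers, Cpa3 fell by 0.85 (limma adjusted p = 0.00568), with a summed level of 12.40 to 12.62 in the combination, 12.69 to 13.16 with CSF3R_T618I, 12.74 to 12.98 with CEBPA_V314VW and 13.21 to 13.29 with Empty Vector. Of the 7 erythroid and megakaryocyte markers, limma called 0 (0 at an unadjusted p under 0.05), with a summed level of 10.10 to 10.17 in the combination and 10.15 to 10.30 with Empty Vector. The part of these shifts in the subunit values was not tested.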

How the data were processed

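RNA from HoxB8-ER cells was profiled on GeneChip Clariom S Mouse arrays (100 ng of total RNA, 12 arrays). Per the labels and the study's methods, the authors processed scans with Affymetrix Expression Console and RMA. The deposited values are log2 levels, background-corrected, normalized and summarized per probe set; the RMA settings and the genome build are not given in the sources used here. Of 28846 probe sets, 6640 controls were left out. Names came from the platform annotation (19572 of 22206 gene probe sets with a single symbol). The number of arrays limits precision.

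A means model per group was fitted with limma 3.58.1 in R 4.3.3 to all 12 arrays, with 6 pairwise contrasts and the interaction, and Benjamini-Hochberg adjustment over 22206 probe sets (threshold 0.05). The fit was tested on simulated data, with changes put into the CSF3R_T618I arrays for 50 genes of each size, drawn from all gene probe sets. Relative to Empty Vector, it called 1 of 50 at a log2 change of 0.3, 11 at 0.5, 36 at 1 and 50 at 2. Values per array were given for called members and for the member with the largest change in each complex and comparison with Empty Vector, and list genes were named where called, up to 4 per list and comparison, with Ppargc1a, Ppargc1b, Pprc1, Nrf1, Gabpa, Esrra, Tfam and Myc in any case where measured; Atp5o, Cox7c, Cox6a1, Cox8b, Cox4i2, Ndufa4l2, Ndufb2, Ndufv3, Sdha, Mpo, Elane, Prtn3, Ctsg and Itgax were added after their values were seen. The members, lists and tests were chosen with earlier results of these data known. Promoters are from RefSeq (GRCm38.p6), which matched 69 of 82 members. Leaving out arrays, other scalings and filters, weights, covariates and the replicate letter as a block were tried as alternatives.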

Additional observations from a re-analysis of the deposited data

How the results depend on the processing

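Ndufa4 remained below the threshold of 0.05 in all 22 alternatives of the combination relative to Empty Vector (change -0.60 to -0.51, adjusted p 2.37e-05 to 0.0251) and of the combination relative to CEBPA_V314VW (-0.55 to -0.46, adjusted p 5.97e-05 to 0.041). Requiring at least 2-fold as well left 0 members in both comparisons. In the combination relative to Empty Vector, the count of 1 became 3 with the intron control covariate, 6 with an intensity trend and 5 with an ordinary linear model, and 1 to 2 when leaving out 1 array (2 without combination B or CSF3R_T618I C). In the combination relative to CEBPA_V314VW it became 2 without dim probe sets, with array weights, with the intron covariate and with the trend, 3 with the ordinary linear model, and 1 to 2 when leaving out 1 array (2 without combination B or CSF3R_T618I C). With CSF3R_T618I relative to Empty Vector, the count of 0 became 1 without dim probe sets, 5 with array weights, 2 with the intron covariate, 1 with the trend and 2 with the ordinary model, and 0 to 1 when leaving out 1 array (1 without CSF3R_T618I A). With CSF3R_T618I relative to CEBPA_V314VW, 0 became 3 without dim probe sets, 5 with array weights, 1 with the intron covariate, 4 with the trend and 3 with the ordinary model. The mean effect of CSF3R_T618I (5 members) gave 2 with the replicate block, 3 without both arrays C, 3 with median centring, 12 with array weights, 8 with the intron covariate and 2 to 5 when leaving out 1 array (2 without combination A, CSF3R_T618I C, CEBPA_V314VW A or C, or any 1 Empty Vector array, and 3 without CSF3R_T618I B). Where a count rose with all 12 arrays kept, the share of all gene probe sets called was as follows. It was 5.62% to 7.35% in the combination relative to Empty Vector, and 6.93% to 10.6% relative to CEBPA_V314VW. With CSF3R_T618I it was 6.39% to 13.6% relative to Empty Vector, and 10.4% to 17.9% relative to CEBPA_V314VW. For the mean effect, array weights gave 10.1% lower and 7.36% higher, and the intron covariate 8.23% and 6.37%. Quantile normalization called 5 members lower and 1 higher for the mean effect, against 6.76% of all gene probe sets lower and 6.13% higher. Causes were not tested beyond what each setting does.

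Over all pairs of a comparison (the interaction included) and an alternative, member medians moved by more than the spread between arrays in 7 and stayed within it in 132. The change of Sdhc with CEBPA_V314VW relative to Empty Vector (-0.06) ran from -0.15 to 0.01 when leaving out 1 array and turned positive without CEBPA_V314VW B. Every member had 1 probe set, so no choice between probe sets of a member entered these values. The replicate letters did not pair the arrays: of 18 pairs of groups with the same letter, 4 deviated together at r over 0.1 (median -0.007, against 0.011 for different letters), and 4 arrays correlated best with their own letter. With the replicate letter as a block, the counts of called members were 1 in the combination relative to Empty Vector, 1 relative to CEBPA_V314VW and 0 in the other comparisons fixed in the design. Median centring left 1 rather than 8 non-overlapping lower members in the combination relative to CSF3R_T618I. With 3 arrays a group and a median SE of 0.11, a change of the size of the median in the combination (-0.14) was not detectable as a call.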

Other observations

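Ndufa4l2, a relative of Ndufa4 that hypoxia-inducible factors are known to induce, and Cox4i2, the Cox4i1 isoform known to respond to low oxygen, did not pass the test in any comparison. Ndufa4l2 measured 6.20, 5.96 and 5.61 in the combination, 6.11, 6.09 and 6.58 with CSF3R_T618I, 6.24, 6.13 and 6.07 with CEBPA_V314VW, and 6.20, 6.07 and 5.99 with Empty Vector. The highest and the lowest arrays of this gene were CSF3R_T618I C and combination C, the arrays with the raised background. The change was -0.17 (SE 0.16, adjusted p = 0.697) in the combination relative to Empty Vector. Cox4i2 measured 6.96, 6.81 and 6.53 in the combination, 6.79, 6.92 and 7.04 with CSF3R_T618I, 6.94 to 7.22 with CEBPA_V314VW, and 6.90, 7.08 and 6.79 with Empty Vector. Its change in the combination relative to Empty Vector was -0.15 (SE 0.13, adjusted p = 0.655), and these groups overlapped.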
